A study of Mus musculus with 24 samples.

Results

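The nuclear genes of respiratory complexes II to V and of cytochrome c were followed in quadriceps and soleus muscle of mice lacking nebulin. A gene was taken when its annotated symbol was Sdha, Sdhb, Sdhc, Sdhd, Cyc1 or Cycs, or began with Uqcr, Cox4, Cox5, Cox6, Cox7, Cox8 or Atp5, and its brightest probe set was used. This gave 48 of the 19938 genes on the array, with 4 in complex II, 9 in complex III, 1 for cytochrome c, 17 in complex IV and 17 in complex V. Genes were picked by name alone, but the rule was set with earlier results of these data known. All but Cox7b2 passed the filter on dim genes, so that 47 were tested, and these 47 lay above the dim limit on all 24 arrays. Cox7b2, a testis form of a complex IV subunit, lay below that limit on all of them.

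The study asked what loss of nebulin does to gene expression in skeletal muscle. Nebulin is a giant protein that spans the actin filaments of the sarcomere and helps to set their length. RNA of whole muscles was hybridised to Affymetrix arrays, 1 array per muscle sample, in 4 groups of 6 arrays. The groups were quadriceps cKO, quadriceps control, soleus cKO and soleus control. All mice were males aged 40 to 42 days from a mix of the strains C57BL/6J and 1219S6/SvEvTac (as spelled in the labels), and all were homozygous for a conditional nebulin allele. The cKO (conditional knockout) mice also carried 1 copy of MCK-Cre, a recombinase under the muscle creatine kinase promoter, which the controls lacked. Cre under that promoter acts in striated muscle fibres, so the other cells of the muscle keep the allele. The controls carry no Cre, and an effect of the Cre transgene cannot be told apart from loss of nebulin.

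Mitochondria pass electrons from nutrients to oxygen along a chain of membrane complexes. Complex II, succinate dehydrogenase, takes electrons from succinate in the citric acid cycle and gives them to ubiquinone. Complex III, the cytochrome bc1 complex, passes them to the small protein cytochrome c, and complex IV, cytochrome c oxidase, passes them on to oxygen. Complexes III and IV pump protons, and complex V, ATP synthase, lets the protons flow back through a rotor and makes ATP. Skeletal muscle and heart build complex IV partly from isoforms of their own (Cox6a2, Cox7a1 and Cox8b), which take the place of widely expressed isoforms (Cox6a1, Cox7a2 and Cox8a). Slow, fatigue-resistant fibres, which are common in the soleus, and fast fibres, which make up most of the quadriceps, differ in how they use this machinery.

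Levels are log2 intensities, on which a change of 1 is a doubling, and a gene is called changed at a limma adjusted p under 0.05 over the 15999 genes tested. A level of 1 gene cannot be set against that of another, since each probe set binds in its own way. Nebulin itself, Neb, averaged 10.84 ± 0.23 in quadriceps cKO and 12.29 ± 0.17 in quadriceps control, and 11.24 ± 0.2 in soleus cKO and 12.38 ± 0.21 in soleus control (SD, n = 6 each). It was 2.73-fold lower in quadriceps cKO and 2.2-fold lower in soleus cKO (limma adjusted p = 1.4e-10 and 2.27e-08), and every cKO array lay below every control array. The deleted part of Neb and the position of its probes are unknown here, so the remaining signal is not a measure of intact transcript. All 8 slow fibre contractile genes listed were higher in soleus control than in quadriceps control, and 8 of 10 fast fibre genes were lower. Over all genes 15.2% were higher and 18.3% lower. Arrays of 1 group correlated with the rest of their group at a mean r of 0.972 to 0.992 over genes. Quadriceps control replicate 4 stood apart, with the lowest of these correlations and an array weight of 0.21, where the next lowest was 0.39, and results that rest on it are given without it. Nothing in the labels says that the 6 samples of a group came from separate litters or days, so p-values measure the spread between these samples.

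In quadriceps, 31 of the 47 tested genes fell in cKO, which is 66% of them, and only Cox8a rose. Over all genes tested 17.7% were lower and 22.3% higher, 40% together. The median change of the 47 genes was -0.30 on the log2 scale, beside -0.01 for all genes. Genes whose cKO arrays all lay below all control arrays numbered 16 here, and made up 6.06% of all genes. The changes were small, from -0.71 for Cox8b to 0.27 for Cox8a, with standard errors near 0.09.

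In soleus, 21 of the 47 genes fell in cKO and 0 rose by limma, also at an unadjusted p under 0.05, beside 9.94% lower and 13.2% higher (23.1% together) over all genes. The median change was -0.22 on the log2 scale, beside -0.02 for all genes. For 21 genes every cKO array lay below every control array, which held for 4.96% of all genes. The averages over all members put this in terms of arrays. As a mean log2 deviation from each gene's own average over all arrays, the 47 genes ranged from -0.18 to 0.02 with a median of -0.14 in quadriceps cKO, and from 0.09 to 0.31 with a median of 0.14 in quadriceps control. They ranged from -0.22 to -0.11 with a median of -0.14 in soleus cKO, and from 0.02 to 0.20 with a median of 0.08 in soleus control. On these means over all 47 genes, the cKO and control arrays did not overlap in either muscle. Taken by complex, the quadriceps arrays overlapped for complexes II and IV, and the soleus arrays overlapped for none. The overlap for complex II came from quadriceps control replicate 4 alone, at -0.16. The other quadriceps control arrays lay at 0.11 or above, and the quadriceps cKO arrays at 0.10 or below. In whole muscle, fewer cells of a type and less RNA per cell cannot be told apart.

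**Figure D1:**
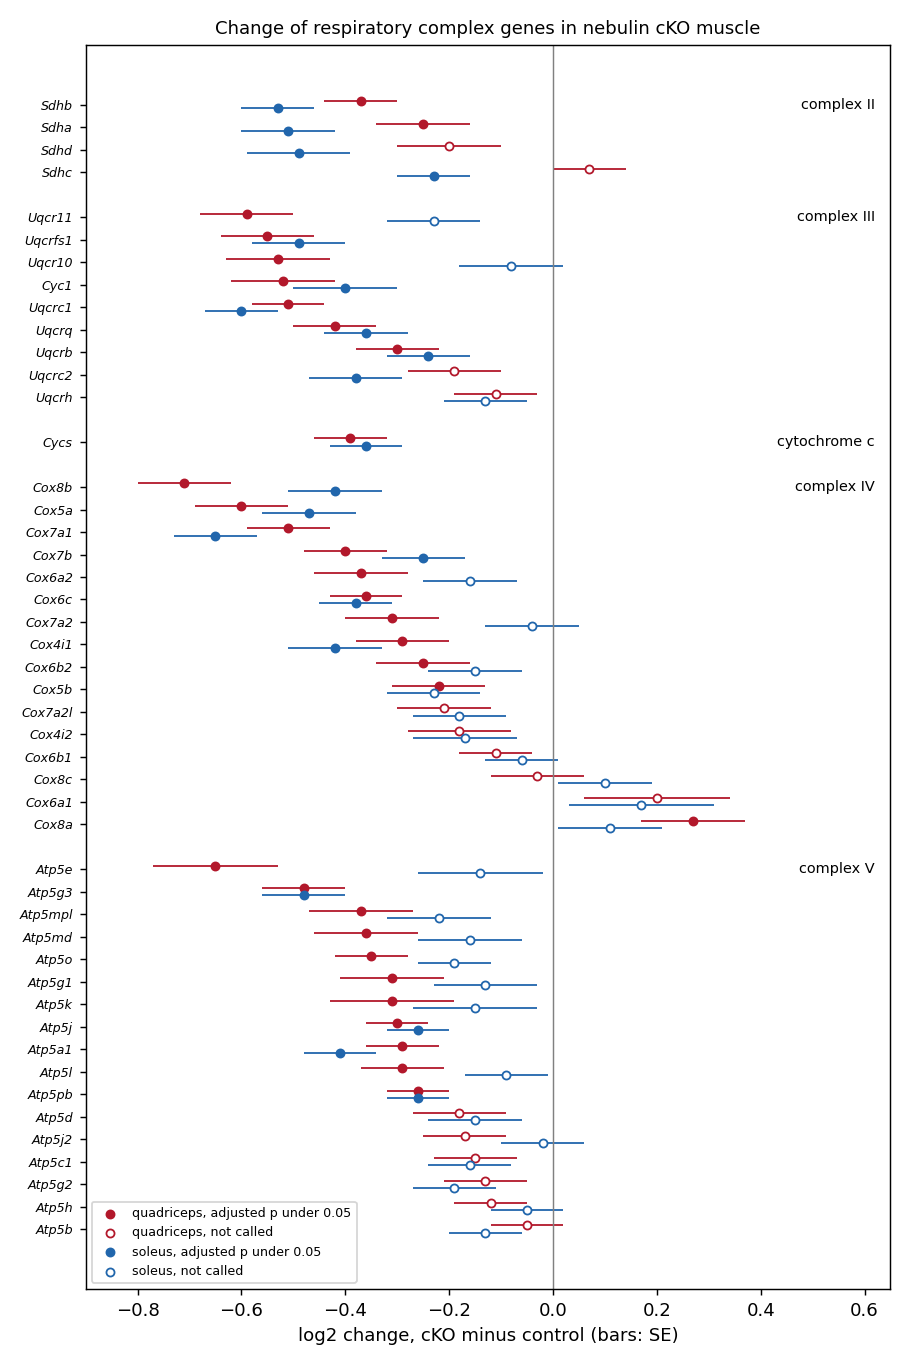
Log2 change, cKO minus control, of the 47 tested genes in quadriceps and soleus, grouped by complex, with standard errors from limma. Most points lie below 0 in both muscles, with Cox8b (-0.71) the lowest in quadriceps and Cox7a1 (-0.65) the lowest in soleus.

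**Figure D2:**
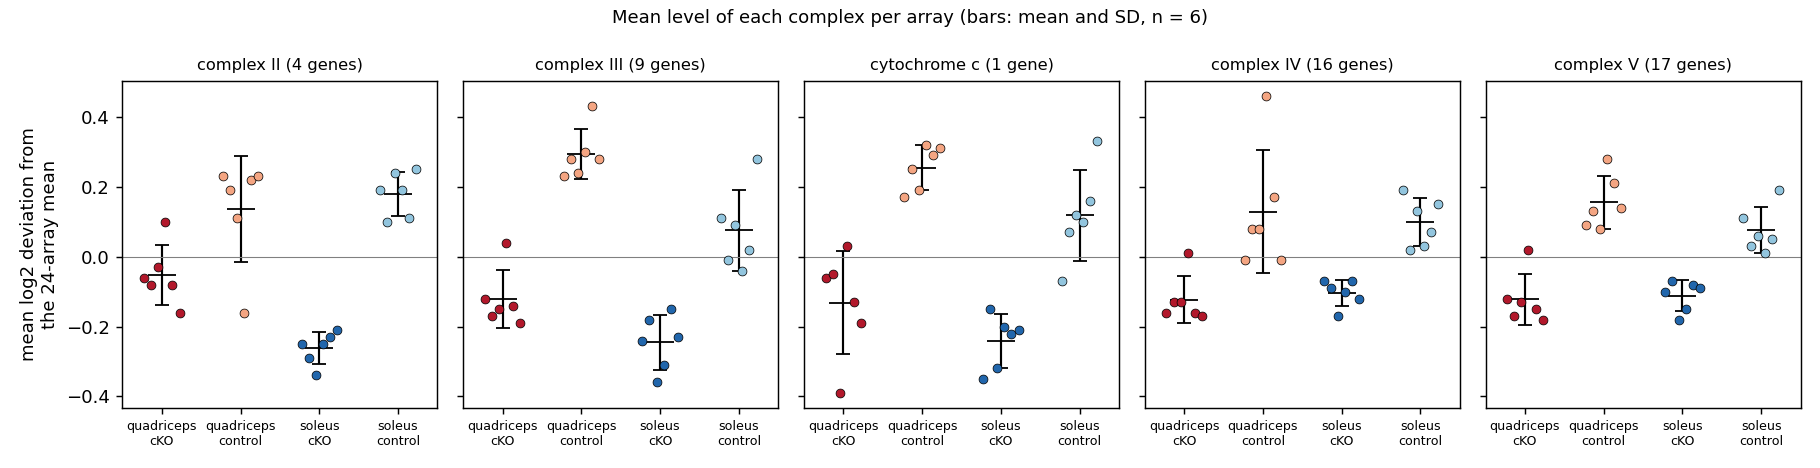
Mean log2 deviation of the genes of each complex on each array, from each gene's average over all arrays, by muscle and genotype. In quadriceps the groups overlap for complex II (cKO up to 0.10, control from -0.16) and complex IV (cKO up to 0.01, control from -0.01). The complex II overlap comes from quadriceps control replicate 4 alone, with the other control arrays at 0.11 or above. In the other quadriceps panels, and in all soleus panels, the cKO arrays lie below the control arrays.

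Fibre type and cell type markers also differed between the groups. Over all genes tested 17.7% were lower and 22.3% higher in quadriceps cKO, and 9.94% and 13.2% in soleus cKO. Of 10 fast fibre contractile genes, 5 were lower and 1 higher in quadriceps cKO (median -0.28), and 8 were lower in soleus cKO (median -0.60). Their summed intensity was 48534 to 55763 in quadriceps cKO and 59256 to 64611 in quadriceps control, and 22533 to 28627 in soleus cKO and 30537 to 44031 in soleus control, without overlap in either muscle. All 8 slow fibre genes were higher in quadriceps cKO (median 1.94), and in soleus cKO 2 were higher and 1 lower (median 0.33). Macrophage markers were higher in cKO for 9 of 10 genes in each muscle. Their summed intensity was 1488 to 1883 in quadriceps cKO and 815 to 1469 in quadriceps control, and 1152 to 1732 in soleus cKO and 746 to 1011 in soleus control. Of 7 markers of fibro-adipogenic progenitors, the connective tissue cells of muscle, 5 were higher in cKO in each muscle, with sums of 9502 to 11537 in quadriceps cKO and 6345 to 10132 in quadriceps control, and of 7423 to 10546 in soleus cKO and 7344 to 8737 in soleus control. Satellite cell markers were higher for 5 of 6 genes in quadriceps cKO and 3 of 6 in soleus cKO. White adipocyte markers were higher for 4 of 6 genes in quadriceps cKO (sums of 2019 to 5626 in cKO and 1085 to 2823 in control) and for 0 of 6 in soleus by limma, or 1 at an unadjusted p under 0.05 (1084 to 2311 in cKO and 1034 to 1430 in control). In quadriceps 0 of 8 endothelial markers were called by limma, with 1 lower at an unadjusted p under 0.05, and in soleus cKO 6 of 8 were lower (sums of 1777 to 2116 in cKO and 2326 to 3663 in control). No listed marker was below the dim limit on all arrays, and the part that fibre types and these cells have in the changes of the respiratory genes was not tested.

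Complex II has 4 subunits, a flavoprotein (Sdha) and an iron-sulphur protein (Sdhb) that carry the catalysis, and a pair of membrane anchors (Sdhc and Sdhd). All 4 fell in soleus cKO, with a median change of -0.50 on the log2 scale, and 2 of 4 fell in quadriceps cKO. Sdhb had 10.52, 10.56 and 10.86 (lowest, median and highest) in quadriceps cKO and 10.81, 11.00 and 11.16 in quadriceps control. The same gene had 10.40, 10.47 and 10.54 in soleus cKO and 10.95, 11.01 and 11.07 in soleus control. The soleus groups lay apart by more than the range of either, and the quadriceps groups overlapped through cKO replicate 4. Sdhb was 1.29-fold lower in quadriceps cKO and 1.45-fold lower in soleus cKO (limma adjusted p = 7.55e-05 and 9.3e-07).

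Sdha fell by 0.25 ± 0.09 in quadriceps cKO and by 0.51 ± 0.09 in soleus cKO on the log2 scale (SE). Its quadriceps call, at a limma adjusted p of 0.0243, was lost without quadriceps control replicate 1 or 6 or cKO replicate 6. Sdhd changed by -0.20 in quadriceps cKO (limma adjusted p = 0.118) and fell by 0.49 in soleus cKO (0.000735). Without quadriceps control replicate 4, where Sdhd read 9.36 against 9.97 to 10.25 on the other control arrays, the quadriceps change was -0.33 (limma adjusted p = 8.64e-04). Sdhc had 10, 10.12 and 10.22 in quadriceps cKO and 9.88, 10.01 and 10.20 in quadriceps control, groups that overlapped. In soleus it had 9.91, 9.97 and 10.12 in cKO and 10.03, 10.24 and 10.39 in control, which also overlapped. The anchor Sdhc changed by 0.07 in quadriceps cKO (limma adjusted p = 0.435) and fell by 0.23 in soleus cKO (0.019), a soleus call that centring the arrays on their median took to 0.0612.

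Complex III showed the largest median change in quadriceps among the complexes with several genes, -0.51 on the log2 scale, and 7 of its 9 genes fell there. In soleus cKO 6 of 9 fell, with a median of -0.36. Uqcrc1, a core protein of the matrix side, had 10.22, 10.29 and 10.43 in quadriceps cKO and 10.62, 10.82 and 10.94 in quadriceps control. It had 10.14, 10.18 and 10.30 in soleus cKO and 10.66, 10.78 and 11.00 in soleus control. Neither muscle had any overlap, and the gene was 1.43-fold lower in quadriceps cKO and 1.51-fold lower in soleus cKO (limma adjusted p = 8.52e-07 and 1.7e-07). The other core protein, Uqcrc2, changed by -0.19 in quadriceps cKO (limma adjusted p = 0.0759) and fell by 0.38 in soleus cKO (0.00182). Without quadriceps control replicate 4 its quadriceps change was -0.29 (limma adjusted p = 6.47e-04).

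Both electron carriers of complex III that are encoded in the nucleus fell in both muscles. Cyc1, which is cytochrome c1 and holds a haem, fell by 0.52 in quadriceps cKO and by 0.40 in soleus cKO on the log2 scale. Uqcrfs1, the Rieske iron-sulphur protein, fell by 0.55 in quadriceps cKO and by 0.49 in soleus cKO. Of the small supernumerary subunits, Uqcrq fell by 0.42 in quadriceps cKO and by 0.36 in soleus cKO, and Uqcrb fell by 0.30 in quadriceps cKO and by 0.24 in soleus cKO. The soleus call of Uqcrb (limma adjusted p = 0.0381) was lost on leaving out any 1 of 9 soleus arrays, all but control replicate 1 and cKO replicates 2 and 4, with limma adjusted p up to 0.0865. Uqcrh, the hinge protein that meets cytochrome c, did not pass the test in either muscle (-0.11 and -0.13).

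A pair of small complex III subunits, Uqcr10 and Uqcr11, passed the test in quadriceps and not in soleus. Uqcr11 had 8.76, 8.97 and 9.08 in quadriceps cKO and 9.32, 9.41 and 9.87 in quadriceps control, with no overlap. In soleus it had 8.63, 8.72 and 8.86 in cKO and 8.82, 8.95 and 9.09 in control, with 1 cKO array inside the control range. It was 1.5-fold lower in quadriceps cKO (limma adjusted p = 6.84e-06), and the soleus change was -0.23 (0.0631). Uqcr10 had 9.36, 9.44 and 9.60 in quadriceps cKO and 9.89, 9.93 and 10.27 in quadriceps control, and it had 8.99, 9.25 and 9.45 in soleus cKO and 9.08, 9.24 and 9.67 in soleus control. Its quadriceps groups lay apart and its soleus groups overlapped, and it was 1.45-fold lower in quadriceps cKO (limma adjusted p = 0.000216), with a soleus change of -0.08 (0.616).

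Cytochrome c, from Cycs, carries electrons between complexes III and IV and also takes part in apoptosis when it leaves the mitochondrion. Cycs had 11.13, 11.43 and 11.56 in quadriceps cKO and 11.69, 11.79 and 11.85 in quadriceps control. It had 11.18, 11.31 and 11.37 in soleus cKO and 11.46, 11.63 and 11.85 in soleus control. The groups did not overlap in either muscle, and Cycs was 1.31-fold lower in quadriceps cKO and 1.28-fold lower in soleus cKO (limma adjusted p = 0.00012 and 0.000496). Its 3 probe sets changed in the same direction in both muscles, with a spread between their log2 changes of 0.29 and 0.33.

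Complex IV had 10 of 16 tested genes lower and 1 higher in quadriceps cKO, with a median change of -0.27 on the log2 scale. In soleus cKO 6 of 16 were lower, with a median of -0.18. Cox4i1 and Cox5a, nuclear subunits close to the catalytic core, fell in both muscles. Cox5a fell by 0.60 ± 0.09 in quadriceps cKO and by 0.47 ± 0.09 in soleus cKO (SE), and Cox4i1 fell by 0.29 ± 0.09 in quadriceps cKO and by 0.42 ± 0.09 in soleus cKO. Cox6c fell by 0.36 in quadriceps cKO and by 0.38 in soleus cKO. Cox7b fell by 0.40 in quadriceps cKO and by 0.25 in soleus cKO, although the soleus call of Cox7b was lost without soleus control replicate 6 or cKO replicate 3 (limma adjusted p up to 0.069). Cox5b and Cox6b2 were lower in quadriceps cKO at limma adjusted p of 0.0448 and 0.0239, and without quadriceps control replicate 4 their changes were -0.14 (0.14) and -0.21 (0.0629). Their calls were also lost without some other quadriceps arrays, those of control replicates 5 and 6 and cKO replicates 1, 2, 3, 5 and 6 for Cox5b, and of control replicate 2 and cKO replicates 2 and 4 for Cox6b2. Cox6b2 read 4.11 to 4.55 in quadriceps cKO and 4.34 to 4.80 in quadriceps control, near the dim limit of 3.51 to 3.72. Cox6b1, Cox4i2, a lung isoform of Cox4i1, Cox7a2l, a factor that joins complexes III and IV into supercomplexes, and Cox8c, a testis isoform, did not pass the test in either muscle. Cox7c was not analysed here, since its 3 probe sets are annotated to 2 genes each.

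For 3 subunits of complex IV the array reads both the muscle isoform and the widely expressed isoform that takes the same place. RefSeq promoters (GRCm38.p6, 250 bases before to 50 after the start, both strands searched) are shown for the Cox8 and Cox7a pairs, whose CpG content differed, with each CpG in capitals. Cox6a2 was not among the promoters matched, so its pair is not shown. The muscle isoforms Cox8b at chr7:140900397-140900696 (minus strand) and Cox7a1 at chr7:30183921-30184220 (plus strand) hold 2 and 7 CpGs. The widely expressed isoforms Cox8a at chr19:7217567-7217866 (minus strand) and Cox7a2 at chr9:79759804-79760103 (minus strand) hold 19 and 20.
Cox8b: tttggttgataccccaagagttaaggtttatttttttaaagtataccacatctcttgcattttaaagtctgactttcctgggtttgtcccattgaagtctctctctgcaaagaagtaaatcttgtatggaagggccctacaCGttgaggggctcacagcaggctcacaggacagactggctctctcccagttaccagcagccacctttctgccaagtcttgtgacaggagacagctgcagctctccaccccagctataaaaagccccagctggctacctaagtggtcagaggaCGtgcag
Cox8a: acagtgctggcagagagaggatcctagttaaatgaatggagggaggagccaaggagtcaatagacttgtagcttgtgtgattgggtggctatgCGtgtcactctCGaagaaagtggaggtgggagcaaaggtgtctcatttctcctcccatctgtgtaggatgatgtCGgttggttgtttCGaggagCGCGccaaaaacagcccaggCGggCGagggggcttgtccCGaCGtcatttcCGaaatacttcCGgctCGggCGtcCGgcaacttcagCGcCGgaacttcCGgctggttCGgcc
Cox7a1: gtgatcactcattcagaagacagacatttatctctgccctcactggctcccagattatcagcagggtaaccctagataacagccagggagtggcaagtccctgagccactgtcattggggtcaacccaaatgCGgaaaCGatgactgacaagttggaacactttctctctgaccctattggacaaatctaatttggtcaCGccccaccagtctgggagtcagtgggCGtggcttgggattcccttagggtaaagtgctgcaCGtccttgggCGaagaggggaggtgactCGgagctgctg
Cox7a2: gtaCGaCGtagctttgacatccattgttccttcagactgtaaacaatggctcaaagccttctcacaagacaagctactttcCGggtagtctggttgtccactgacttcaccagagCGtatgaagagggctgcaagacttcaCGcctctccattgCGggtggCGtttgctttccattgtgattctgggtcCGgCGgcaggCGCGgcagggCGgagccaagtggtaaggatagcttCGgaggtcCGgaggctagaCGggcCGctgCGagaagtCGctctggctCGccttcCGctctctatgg
The Cox8a window holds 2 matches to CCGGAAG, the core letters of a GABPA site, a factor known for driving nuclear genes of the respiratory chain. The windows of Cox8b, Cox7a1 and Cox7a2 hold no match to it, nor to GCGC, any base and TGCGC in a row (NRF1) or AAGGTCA (estrogen-related receptors).

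Windows were found for 36 of the 48 genes, 39 windows in all, with a median of 19 CpGs beside 7 in all 32851 windows of the table. Cox8b, with 2 CpGs, had the fewest, followed by Cox7b with 5 and Cox7a1 with 7. NRF1 letters stood in 25.6% of these windows (10) and in 4.6% of all windows, GABPA letters in 33.3% (13) and in 8.86%, and the estrogen-related receptor letters in 12.8% (5) and in 4.72%. These motifs did not overlap each other in the members' windows. The NRF1 and GABPA letters themselves hold CpGs, of which the members' windows have more. Windows of like CpG content were not compared, so these shares do not separate the motifs from CpG content. A match is a run of letters and not a measured binding site.

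Cox8b, the muscle form of subunit VIII, showed the largest change of the 47 genes in quadriceps. It had 10.42, 10.59 and 10.71 in quadriceps cKO and 11.01, 11.27 and 11.69 in quadriceps control, and it had 10.86, 10.90 and 10.94 in soleus cKO and 11.19, 11.25 and 11.53 in soleus control. Neither muscle had any overlap, and Cox8b was 1.63-fold lower in quadriceps cKO and 1.34-fold lower in soleus cKO (limma adjusted p = 4.7e-07 and 0.000839). Cox8a, whose promoter is the CpG-rich one above, had 7.71, 7.91 and 8.17 in quadriceps cKO and 7.21, 7.64 and 7.99 in quadriceps control, and it had 7.61, 7.81 and 7.89 in soleus cKO and 7.53, 7.68 and 7.81 in soleus control. The groups of Cox8a overlapped in both muscles. It was 1.21-fold higher in quadriceps cKO (limma adjusted p = 0.0307), and its soleus change was 0.11 (0.484). The quadriceps call of Cox8a was lost without any of control replicates 1, 2 and 6 and cKO replicates 2, 3 and 5 (limma adjusted p up to 0.0912), and with 75th percentile centring (0.149) or quantile normalization (0.132).

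Cox7a1, the muscle form of subunit VIIa, had 10.82, 10.93 and 11.15 in quadriceps cKO and 11.30, 11.45 and 11.58 in quadriceps control, and it had 10.51, 10.68 and 10.82 in soleus cKO and 11.11, 11.28 and 11.56 in soleus control. The groups did not overlap in either muscle, and Cox7a1 was 1.42-fold lower in quadriceps cKO and 1.57-fold lower in soleus cKO (limma adjusted p = 2.87e-05 and 1.7e-06). Cox7a2 had 8.64, 8.81 and 8.98 in quadriceps cKO and 8.84, 9.06 and 9.44 in quadriceps control, and it had 8.60, 8.75 and 8.96 in soleus cKO and 8.58, 8.82 and 8.95 in soleus control. Both pairs of groups overlapped, and Cox7a2 was 1.24-fold lower in quadriceps cKO (limma adjusted p = 0.00895), with a soleus change of -0.04 (0.824).

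Cox6a2, the muscle form of subunit VIa, had 10.45, 10.74 and 10.95 in quadriceps cKO and 10.92, 11.02 and 11.45 in quadriceps control, and it had 11.16, 11.22 and 11.30 in soleus cKO and 11.23, 11.40 and 11.56 in soleus control. Both pairs of groups overlapped at their edges, and Cox6a2 was 1.29-fold lower in quadriceps cKO (limma adjusted p = 0.0016), with a soleus change of -0.16 (0.195). Cox6a1 had 8.54, 8.72 and 9.28 in quadriceps cKO and 8.16, 8.51 and 9.01 in quadriceps control, and it had 8.13, 8.42 and 8.54 in soleus cKO and 7.97, 8.26 and 8.40 in soleus control. Its groups overlapped, and its changes of 0.20 and 0.17 did not pass the test (limma adjusted p = 0.237 and 0.414).

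**Figure D3:**
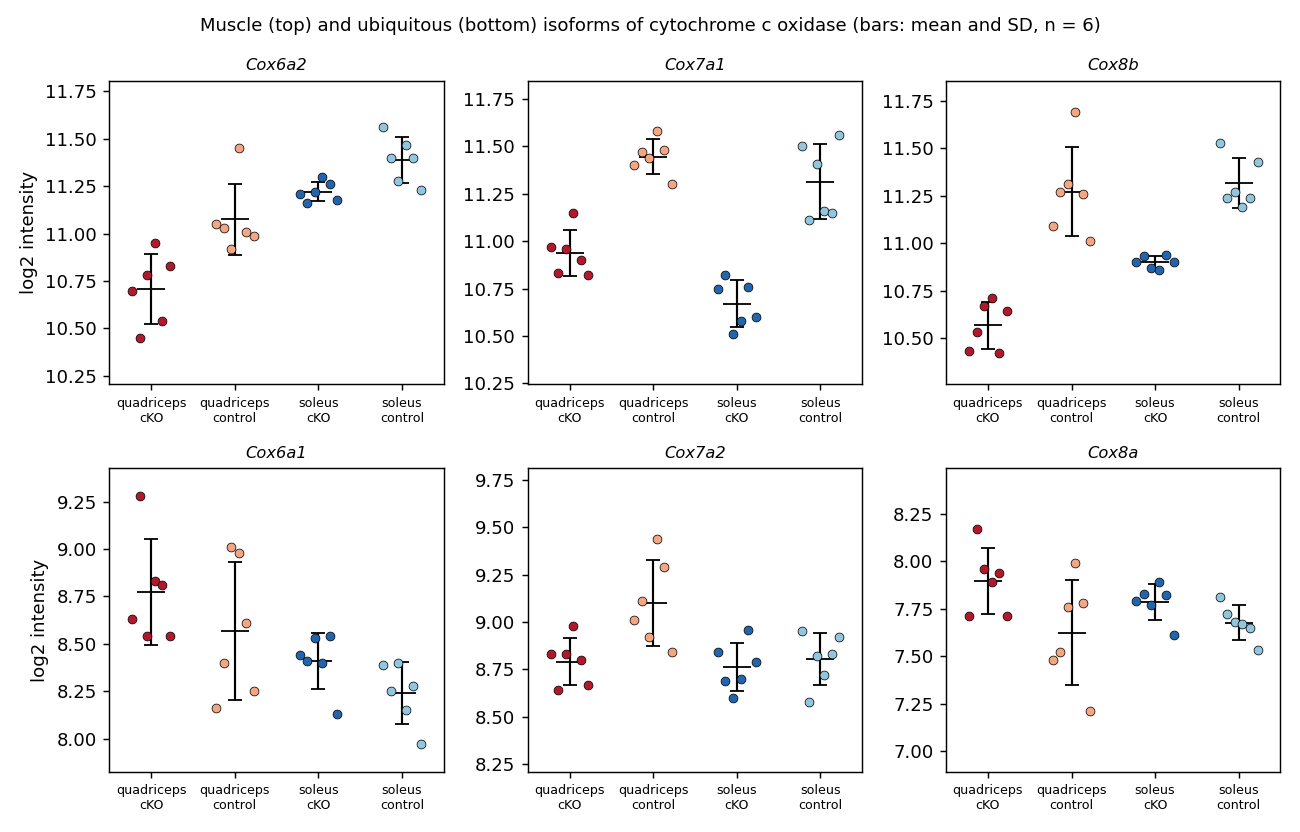
Log2 intensity of the muscle and widely expressed isoforms of 3 complex IV subunits on each array, by muscle and genotype, with mean and SD (n = 6). Every cKO point of Cox8b and Cox7a1 lies below every control point of the same muscle, and the points of Cox8a, Cox7a2, Cox6a1 and Cox6a2 overlap.

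The difference between the isoforms of a pair was then taken within each array, where any constant scaling of the array cancels, and compared between groups by a two-sided exact permutation test over arrays, with p-values adjusted over 9 tests. For Cox8b minus Cox8a this difference was 2.36 to 2.94 in quadriceps cKO and 3.49 to 3.81 in quadriceps control, and 2.98 to 3.28 in soleus cKO and 3.52 to 3.89 in soleus control. No groups of 1 muscle overlapped, and the shift was -0.98 in quadriceps and -0.52 in soleus (exact permutation p = 0.00216 each, the smallest that 6 against 6 can give, adjusted p = 0.00649). For Cox7a1 minus Cox7a2 it was 1.80 to 2.12 in soleus cKO and 2.32 to 2.64 in soleus control, without overlap, a shift of -0.61 (exact permutation adjusted p = 0.00649). In quadriceps the same pair shifted by -0.19, with overlapping groups (2.09 to 2.19 in cKO and 2.14 to 2.52 in control, exact permutation adjusted p = 0.026).

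Cox6a2 minus Cox6a1 shifted by -0.57 in quadriceps (1.16 to 2.29 in cKO and 1.91 to 2.89 in control, exact permutation adjusted p = 0.0306) and by -0.33 in soleus (2.69 to 3.05 in cKO and 2.88 to 3.31 in control, adjusted p = 0.0117). The quadriceps call was lost without any of quadriceps control replicates 1, 2, 4 and 6 or cKO replicates 2 and 5, with adjusted p up to 0.0668 in exact permutation tests. All 6 shifts between cKO and control thus ran toward less of the muscle isoform relative to its partner. These values show unequal change within a pair and do not show which isoform is the more abundant.

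**Figure D4:**
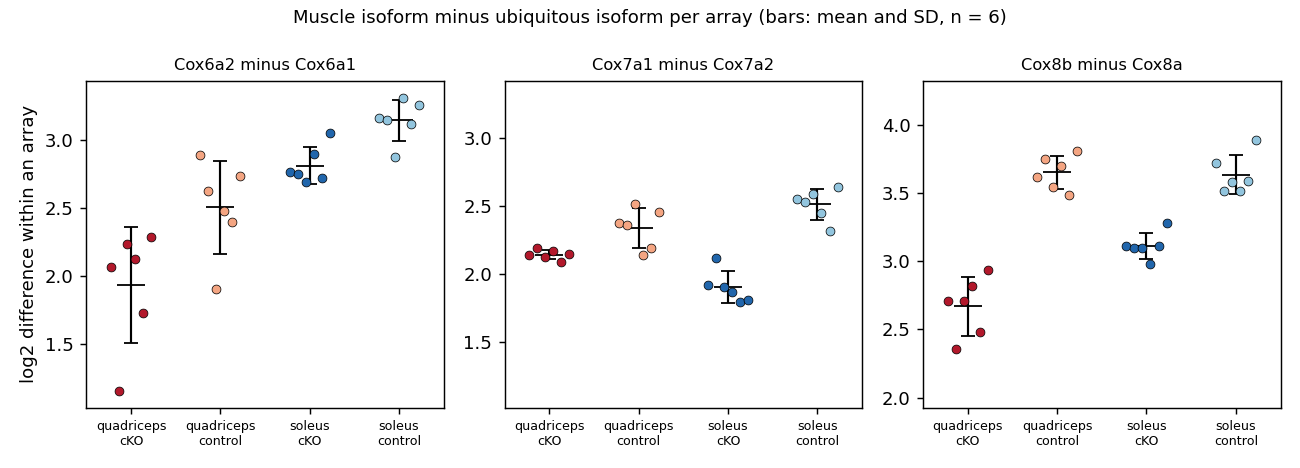
Within-array log2 difference of the muscle isoform minus the widely expressed isoform, for 3 complex IV pairs, on each array by muscle and genotype with mean and SD (n = 6). For Cox8b minus Cox8a the cKO arrays lie at 2.36 to 2.94 in quadriceps and the control arrays at 3.49 to 3.81.

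Brown fat also expresses Cox8b and Cox7a1, so its markers were read beside them. Ucp1, the uncoupling protein of brown fat, had 5.09, 8.29 and 10.06 in quadriceps cKO and 6.80, 8.08 and 10.54 in quadriceps control, with overlap and a wide spread. In soleus Ucp1 had 4.28, 4.80 and 5.11 in cKO and 4.13, 4.50 and 4.73 in control, near the dim limit of 3.51 to 3.72. Its changes of -0.17 in quadriceps and 0.27 in soleus did not pass the test. Of 6 brown adipocyte markers, 1 was called higher in quadriceps cKO by limma, and 2 were lower at an unadjusted p under 0.05. Their median change there was -0.22 on the log2 scale. In soleus cKO 1 was called higher and 1 lower. A single marker is 16.7% of this list. Over all genes 22.3% were higher and 17.7% lower in quadriceps cKO, and 13.2% and 9.94% in soleus cKO. The gene called higher was Dio2 in both muscles, and the one called lower in soleus was Ppargc1a, which muscle fibres also express. The summed intensity of all 6 was 464 to 1913 in quadriceps cKO and 607 to 2663 in quadriceps control, and 374 to 510 in soleus cKO and 509 to 2140 in soleus control. Without Ppargc1a it was 209 to 1576 in quadriceps cKO and 279 to 2097 in quadriceps control, and 182 to 258 in soleus cKO and 152 to 206 in soleus control, so the lower soleus sum came from Ppargc1a. The part of brown fat in the changes of Cox8b and Cox7a1 was not tested.

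Complex V had 11 of 17 genes lower in quadriceps cKO, with a median change of -0.29 on the log2 scale, and 4 of 17 lower in soleus cKO, with a median of -0.16. Of the catalytic head, the alpha subunit Atp5a1 fell by 0.29 in quadriceps cKO and by 0.41 in soleus cKO (limma adjusted p = 0.00168 and 6.03e-05). The beta subunit Atp5b, which binds the nucleotides at the catalytic sites, changed by -0.05 and -0.13 and did not pass the test (limma adjusted p = 0.608 and 0.162). The gamma subunit Atp5c1 and the delta subunit Atp5d of the central stalk did not pass it either, with changes from -0.18 to -0.15. Without quadriceps control replicate 4 they were called lower in quadriceps cKO, at -0.24 and -0.28.

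Atp5e, the small epsilon subunit of the central stalk, had the largest change of the complex in quadriceps. It had 8.43, 8.71 and 8.88 in quadriceps cKO and 9.06, 9.32 and 9.69 in quadriceps control, without overlap. In soleus it had 8.09, 8.35 and 8.78 in cKO and 8.28, 8.45 and 8.83 in control, with overlap. Atp5e was 1.56-fold lower in quadriceps cKO (limma adjusted p = 9.27e-05), and its soleus change was -0.14 (0.441).

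The membrane ring that turns with the proton flow is built from 1 protein encoded by 3 genes. Of these, Atp5g3 had 10.26, 10.37 and 10.58 in quadriceps cKO and 10.71, 10.87 and 11.01 in quadriceps control, and it had 10.10, 10.27 and 10.43 in soleus cKO and 10.62, 10.68 and 11.04 in soleus control. The groups did not overlap in either muscle, and Atp5g3 was 1.39-fold lower in each (limma adjusted p = 2.99e-05 in quadriceps and 4.98e-05 in soleus). Atp5g1 fell by 0.31 in quadriceps cKO (limma adjusted p = 0.0123), with a soleus change of -0.13 (0.356). Atp5g2 changed by -0.13 and -0.19 and did not pass the test. Whether probes of these near-identical genes also bind each other's RNA was not tested.

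Of the peripheral stalk, which holds the head still, Atp5pb and Atp5j fell in both muscles, by 0.26 and 0.30 in quadriceps cKO and by 0.26 and 0.26 in soleus cKO. Atp5o, the subunit that confers oligomycin sensitivity, fell by 0.35 in quadriceps cKO, with a soleus change of -0.19 (limma adjusted p = 0.0635). Atp5h did not pass the test in either muscle. Among the small membrane subunits, Atp5mpl, Atp5md, Atp5k and Atp5l were lower in quadriceps cKO, by 1.22- to 1.3-fold, and not called in soleus. Without quadriceps control replicate 4 the changes were -0.24 for Atp5mpl, -0.26 for Atp5md, -0.19 for Atp5l and -0.14 for Atp5k. The call of Atp5k was lost without quadriceps control replicate 4, where Atp5k read 8.73 against 7.67 to 7.88 on the other control arrays (limma adjusted p = 0.0744 without it). It was also lost without control replicate 5 or cKO replicate 1, 2, 3 or 6. Atp5j2 did not pass the test in either muscle.

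The change in cKO was then compared between the muscles, as soleus change minus quadriceps change in the limma model. Of the 47 genes 2 were called higher, which means a smaller decrease in soleus, and 1 was called lower, beside 4.89% and 7.39% of all genes (12.3% together). Atp5e differed by 0.51 ± 0.17 (SE, limma adjusted p = 0.0455) and Uqcr10 by 0.45 ± 0.15 (0.0458). Sdhc differed by -0.31 ± 0.10 (0.0493), and Uqcr11 by 0.36 ± 0.12 (0.0569). With muscles of 1 animal as a random block, Uqcr11 was called too (limma adjusted p = 0.0303). All 3 calls lay close to the threshold and were lost without quadriceps control replicate 4, at 0.44 for Atp5e (limma adjusted p = 0.0734), 0.39 for Uqcr10 (0.0724) and -0.29 for Sdhc (0.0587). Counting that array, leaving out any 1 of 15 arrays ended the call of Atp5e, of 16 that of Uqcr10 and of 17 that of Sdhc, among the 24, with limma adjusted p up to 0.0839, 0.0853 and 0.0917. For the other 44 genes a call in 1 muscle alone is not a difference between muscles.

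Among controls, the largest differences between soleus and quadriceps were those of Atp5e, Uqcr10 and Uqcr11. Of the 47 genes 3 were higher in soleus control and 8 lower, beside 15.2% and 18.3% of all genes (33.5% together), with a median of -0.06 where all genes had 0.03. Atp5e was 1.77-fold lower in soleus control, Uqcr10 1.59-fold and Uqcr11 1.47-fold lower (limma adjusted p = 4.95e-06, 1.71e-05 and 1.69e-05). For these 3 genes and Atp5j2, all soleus control arrays lay below all quadriceps control arrays, as in 7.73% of all genes. Cyc1 was lower by 0.34, Atp5j2 by 0.33, Cox7a2 by 0.30, Uqcrfs1 by 0.26 and Atp5o by 0.23 on the log2 scale. Cox6a2 was higher in soleus control by 0.31, Atp5g1 by 0.27 and Atp5h by 0.19. Leaving out 1 array ended the calls of Uqcrfs1, Atp5g1 and Atp5h in 8, 5 and 4 cases, and without quadriceps control replicate 4 Atp5g1 was at 0.17 (limma adjusted p = 0.0909). With muscles of 1 animal as a random block 4 genes were higher and 9 lower, with Sdhc (0.17, limma adjusted p = 0.0367) and Cox6a1 (-0.33, 0.0332) called too. With arrays centred on their median, 0 genes were called higher and 18 lower by limma, and the median of all genes was then -0.07.

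The comparison of control muscles and the cKO comparison in quadriceps share the 6 quadriceps control arrays, so their changes are set side by side without a test. For Atp5e the soleus minus quadriceps difference in controls was -0.82 and the quadriceps cKO change -0.65. For Uqcr10 the values were -0.67 and -0.53, and for Uqcr11 -0.56 and -0.59. Cyc1, Uqcrfs1, Cox7a2 and Atp5o were also called lower in both comparisons. Cox6a2 (0.31 and -0.37) and Atp5g1 (0.27 and -0.31) were called in opposite directions. Cox8b, with the largest quadriceps cKO change (-0.71), differed by 0.04 between control muscles. Of the isoform pairs, Cox6a2 minus Cox6a1 was 0.64 higher in soleus control than in quadriceps control (exact permutation adjusted p = 0.00974). Cox8b minus Cox8a differed by -0.01 between them (exact permutation adjusted p = 0.87). Cox7a1 minus Cox7a2 differed by 0.17 (exact permutation adjusted p = 0.056), and by an exact sign-flip test of muscles paired by animal the adjusted p was 0.0469.

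**Figure D5:**
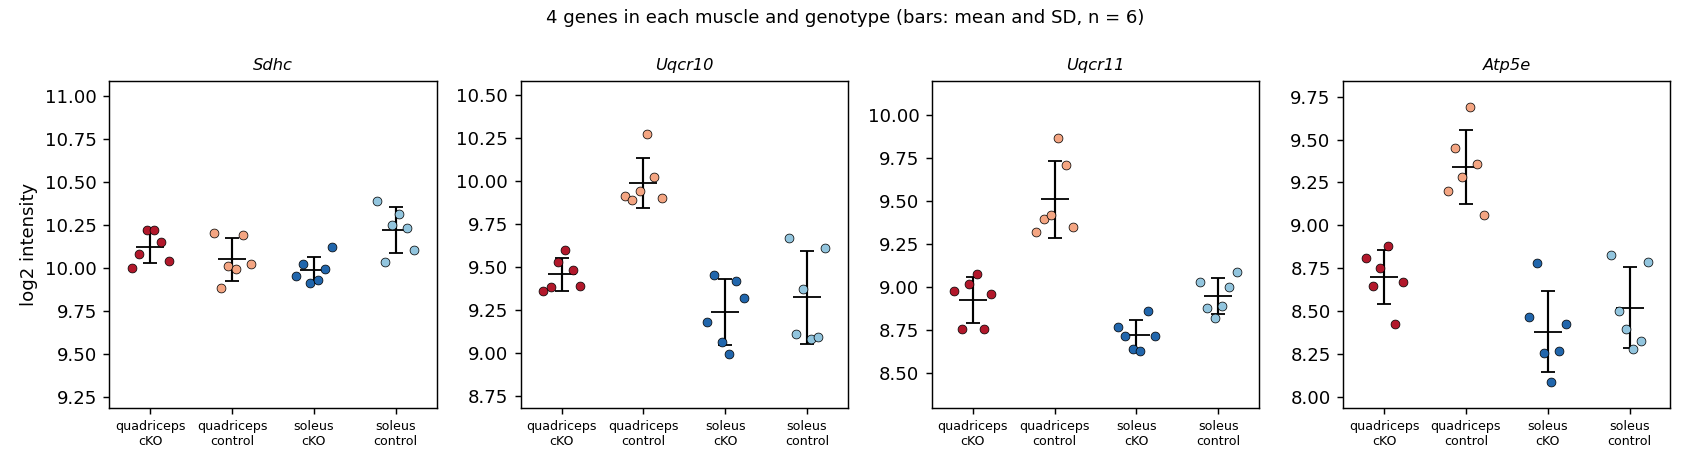
Log2 intensity of Sdhc, Uqcr10, Uqcr11 and Atp5e on each array, by muscle and genotype, with mean and SD (n = 6). For Uqcr10, Uqcr11 and Atp5e the quadriceps control arrays lie above the other 3 groups, and the highest soleus control array of Atp5e reads 8.83.

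Genes that build or adjust the complexes were read from lists in the same fit. Of 32 assembly factors, which help subunits fold, mature and join, 17 were lower (53.1%) and 1 higher in quadriceps cKO, with a median of -0.27 on the log2 scale, beside 17.7% lower over all genes. In soleus cKO 13 were lower (40.6%) and 3 higher, with a median of -0.21, beside 9.94% lower over all genes. Atpaf1, a chaperone of the ATP synthase head, fell by 0.83 ± 0.10 in quadriceps cKO and by 0.85 ± 0.10 in soleus cKO (SE, limma adjusted p = 4.08e-07 and 5.22e-07). Fmc1, which takes part in complex V assembly in yeast, fell by 1.14 in quadriceps cKO, and Cox11, a copper chaperone of complex IV, by 0.73. Fmc1 had 5.98, 6.03 and 6.37 in quadriceps cKO and 6.84, 7.08 and 8.17 in quadriceps control. Its highest control reading lay well above the control median. In soleus cKO, Tmem70, a complex V factor, fell by 0.59, Lrpprc, which stabilises mitochondrial messenger RNA, by 0.65 and Sdhaf3, a complex II factor, by 0.39. The cKO means of these genes were lower in the other muscle too. Fmc1 averaged 5.97 in soleus cKO and 6.65 in soleus control, and Cox11 6.58 and 7.02. In quadriceps cKO and control, Tmem70 averaged 8.54 and 8.94, Sdhaf3 6.08 and 6.6, and Lrpprc 8.71 and 8.88. In that other muscle the groups overlapped for Cox11 and Lrpprc only.

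Atpif1, the inhibitor protein that stops ATP synthase from running backwards, rose in both muscles, against the direction of the subunits. It had 9.93, 10.15 and 10.29 in quadriceps cKO and 9.28, 9.33 and 9.86 in quadriceps control, and it had 9.57, 9.76 and 10.05 in soleus cKO and 9.08, 9.12 and 9.56 in soleus control. No cKO array overlapped the controls of its muscle, and the change was 0.69 ± 0.10 in quadriceps and 0.56 ± 0.10 in soleus (SE, limma adjusted p = 6.48e-06 and 0.000198). Of the other 4 partners and subunits with other names, 3 were lower in each muscle, and not the same 3. That is 60% of the 5 tested in this list, beside 17.7% lower over all genes in quadriceps cKO and 9.94% in soleus cKO. Higd2a, a complex IV assembly partner, and Ndufa4, a subunit now placed in complex IV, were lower in both. The mitochondrially encoded subunits of complexes III to V were not analysed here.

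Of 17 regulators of mitochondrial genes, 3 rose (17.6%) and 5 fell (29.4%) in quadriceps cKO, beside 22.3% and 17.7% of all genes, so that the share that changed there was near that of all genes. In soleus cKO 0 rose and 4 fell (23.5%) by limma, beside 13.2% and 9.94% of all genes, and 1 was higher at an unadjusted p under 0.05. Ppargc1a, a coactivator that drives mitochondrial biogenesis, had 7.29, 7.83 and 8.23 in soleus cKO and 8.24, 9.35 and 10.96 in soleus control, groups that met without overlap. It fell by 1.78 ± 0.31 in soleus cKO on the log2 scale (SE, limma adjusted p = 0.00011). Ppara, a nuclear receptor of fatty acid oxidation, fell by 1.09 there. Tfb2m, a factor of mitochondrial transcription, fell by 0.48 in quadriceps cKO and by 0.38 in soleus cKO. Esrrg, a nuclear receptor of slow oxidative muscle, rose by 1.2 ± 0.24 in quadriceps cKO (limma adjusted p = 0.000259), while Esrra, its relative, fell by 0.46. The Esrrg change differed between the muscles by -1.45, soleus minus quadriceps (limma adjusted p = 0.00537).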

How the data were processed

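RNA of 24 muscle samples was hybridised to Affymetrix arrays. The authors deposited 1 intensity per probe set and array, on a linear scale from 1.76 to 10075. Affymetrix Expression Console, RMA (background correction, quantile normalization and probe set summary) and build mm10 are named per the submitters' processing notes, without versions. RMA evens out array distributions, so a shift of all genes would not be seen.

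The intensities were turned to log2. Of 35557 probe sets, 21789 have 1 symbol, 1621 several and 12147 none, and the last 2 kinds were left out. For 19938 genes the brightest probe set was kept. Genes above the array's 30th percentile (the dim limit, 3.51 to 3.72) on at least 6 arrays were tested, 15999 in all, and 3939 were removed. The number of arrays limits the precision.

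Samples were grouped by their titles. A limma 3.58.1 model under R 4.3.3 with a mean for each of the 4 groups, fitted to 24 arrays by lmFit and eBayes (20 residual and 6.52 prior degrees of freedom) gave every change, two-sided, with Benjamini-Hochberg adjustment over all 15999 genes. It was tested on simulated data. Isoform pairs were compared by exact permutation tests. The members, the lists and the rule for naming genes were chosen with earlier results of these data known. Members given in full are the isoform pairs and, for each complex and comparison, the called gene with the largest change, and from each list up to 4 genes of smallest p and Neb were nameable. The quadriceps values of Ucp1 fall outside that rule and were chosen after they were seen.

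Labels number samples 1 to 6 in each group. Deviations of same-numbered quadriceps and soleus arrays correlated between 0.22 and 0.45 in cKO and 0.16 and 0.31 in controls, all above 0.1, so these were treated as muscles of 1 animal in the blocked alternatives. For number 4 of cKO the labels give different ages. Other alternatives were the scaling, the filter, the probe set rule, weights, the prior, the arrays in the fit, and leaving out each array.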

Additional observations from a re-analysis of the deposited data

Results flagged for a closer look

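For each gene and group of 6 arrays, the array farthest from the others was compared with them by Dixon's test, which chance alone meets in about 1 of 20 groups. Of 188 tests 27 met it, 14 of them on quadriceps control replicate 4 and 6 on quadriceps cKO replicate 4.

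Quadriceps control replicate 4 was low for Atp5b (11.74, others 11.98 to 12.12), Atp5c1 (11.04, others 11.50 to 11.60), Sdhd (9.36, others 9.97 to 10.25) and Uqcrc2 (10.59, others 11.09 to 11.38). It was high for Atp5j (11.55, others 11.26 to 11.33), Atp5k (8.73, others 7.67 to 7.88), Atp5l (11.18, others 10.47 to 10.72), Atp5mpl (11.45, others 10.57 to 10.75) and Cox4i2 (6.12, others 5.49 to 5.69). It was also high for Cox6a2 (11.45, others 10.92 to 11.05), Cox6c (12.18, others 11.64 to 11.79), Cox7b (11.49, others 10.91 to 11.13), Uqcr10 (10.27, others 9.89 to 10.02) and Uqcrb (12.14, others 11.57 to 11.67). The part of RNA quality or of the dissected tissue in this was not tested.

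Quadriceps cKO replicate 4 was high for Atp5a1 (11.52, others 11.38 to 11.42), Atp5b (12.05, others 11.93 to 11.97), Atp5g3 (10.58, others 10.26 to 10.38), Atp5h (11.06, others 10.84 to 10.92), Cox5a (9.74, others 9.35 to 9.47) and Sdhb (10.86, others 10.52 to 10.64). Quadriceps control replicate 1 was high for Cox8c (4.50, others 4.07 to 4.21).

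In soleus, cKO replicate 3 was low for Cox5a (9.32, others 9.47 to 9.51) and cKO replicate 6 for Cox6a1 (8.13, others 8.40 to 8.54). Control replicate 6 was high for Atp5md (11.15, others 10.89 to 10.94), Cox5a (10.23, others 9.80 to 9.95) and Uqcrfs1 (10.09, others 9.57 to 9.76), and control replicate 1 was low for Cox6c (11.68, others 11.84 to 11.90).

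The cKO change differed between muscles, soleus minus quadriceps, by 0.51 for Atp5e, 0.45 for Uqcr10 and -0.31 for Sdhc in the limma interaction test. These calls lay close to the threshold and were lost without quadriceps control replicate 4. Over all genes 12.3% were called for this difference.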

How the results depend on the processing

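No called direction reversed among the results recomputed. Some changes that were not called did change sign, such as that of Cox8c in quadriceps, which lay between -0.06 and 0.03 on leaving out 1 array. The counts of genes lower in cKO stayed within 1.5 times in each muscle. Over the members' changes and alternatives, 1500 values kept a call and 140 lost it, while 3274 stayed without a call and 107 gained one. Calls came from 67 of the 188 changes. Leaving out 1 array gave 0 to 1 genes higher in quadriceps cKO, 0 to 3 higher and 0 to 1 lower for the difference between muscles, and 1 to 4 higher in soleus control. The Cox6a2 shift relative to Cox6a1 in quadriceps then lay between -0.69 and -0.42, and the Cox7a1 shift between control muscles between 0.13 and 0.21.

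Median centring gave 0 genes lower for the difference between muscles, and 0 higher and 18 lower with a median of -0.16 in soleus control. With 75th percentile centring, 0 were higher in quadriceps cKO and 0 lower for the difference between muscles. Quantile normalization gave 0 higher in both. Without a filter on dim genes, 0 were higher and 0 lower for the difference. Using only the arrays compared gave 0 higher in quadriceps cKO and 1 in soleus control. Array weights gave 4 higher for the difference and 5 in soleus control, with 3570 genes called for the difference over all genes. Leaving out the 3 arrays of lowest weight, chosen after seeing the data, gave 4 higher, 0 lower and 3675 genes over all for the difference, and 5 higher in soleus control. In none of these cases was the cause tested. Called genes were higher for 55.7% in quadriceps cKO, for 37.5% after 75th percentile centring, and for 57% in soleus cKO. They were higher for 45.4% in soleus control, and for 22.3% after median centring and 56.2% after 75th percentile centring. For the difference between muscles the share was 39.8%, and 54.4% after median and 51.3% after 75th percentile centring.

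With the replicate number as a fixed block, 1 gene was higher and 0 lower for the difference, and with the animal as a random block 2952 genes were called over all. Arrays of cKO and control with the same number correlated between -0.15 and 0.17 in quadriceps and 0.04 and 0.32 in soleus. Of 6 such pairs, 3 in quadriceps and 4 in soleus lay above 0.1. They come from mice of different genotype and were not paired in the main tests. Whether a number stands for a shared litter or day was not tested. An exact sign-flip test over such numbers gave shifts of -0.57 (adjusted p = 0.0703) for Cox6a2 and -0.19 (0.0703) for Cox7a1 in quadriceps, and 0.17 (0.0469) for Cox7a1 between control muscles. The random block changed no other call of the 47 genes than Uqcr11 for the difference and Cox6a1 and Sdhc between control muscles. Cox7b2, at 2.18 to 2.69, lay below the dim limit on all arrays and is left unmeasured.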

Other observations

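Other nuclear genes of the mitochondrion were read in the same fit. Of 19 tested genes for membrane channels, import, chaperones and fusion, 8 were lower (42.1%) and 0 higher in quadriceps cKO by limma (0 higher also at an unadjusted p under 0.05), with a median of -0.24 on the log2 scale. Over all genes 17.7% were lower and 22.3% higher there. In soleus cKO 11 were lower (57.9%) and 1 higher, with a median of -0.28, beside 9.94% lower and 13.2% higher over all genes. Vdac1, a pore of the outer membrane, fell by 0.50 in quadriceps cKO and by 0.42 in soleus cKO (limma adjusted p = 7.41e-08 and 2.54e-06). Vdac3, its relative, fell by 0.57 in quadriceps cKO and by 0.44 in soleus cKO. Mfn1, which fuses outer membranes, fell by 0.53 in quadriceps cKO and by 0.71 in soleus cKO. Hspd1, a chaperonin of the matrix, fell by 0.51 in soleus cKO, and its change differed between the muscles by -0.46, soleus minus quadriceps (limma adjusted p = 0.019).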
